A study of Danio rerio with 9 samples.

Results

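This account covers 2990 chromatin contacts of the zebrafish caudal fin that were called in uninjured fins, were not called at 1 day post amputation (dpa) and were called again at 4 dpa. They are referred to as returning contacts. They were chosen by the calls themselves, from the 28421 contacts of the 0 dpa list (74121 in the 3 lists together), under 3 conditions: a distance between bin starts (the span) of at most 200 kb, a counterpart in the 4 dpa list and none in the 1 dpa list. A counterpart is a called contact on the same chromosome with both anchor bins within 1 bin of 10 kb. Of the 24348 contacts of 0 dpa with such a span, the returning contacts made up 12.3%. Since the calls chose the contacts, every count, expected count and false discovery rate (FDR) at 0 and 4 dpa is given as a description with no test.

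All 9 samples came from Ekkwill zebrafish, a wild type strain, as adults of 6 to 8 months, with no transgene or mutation named in the labels. Caudal fins were cut and tissue was collected at once (0 dpa, uninjured) or at 1 or 4 dpa, with 3 pools of 10 fins at each time. A pool mixes animals and every cell type of the fin, and the lists hold no expression values with which the cell types could be checked. Fewer cells with a contact and a weaker contact in each cell can therefore not be told apart. The assay reads contacts of open chromatin, so a less open anchor bin cannot be told from either of these. The name of each list gave its time point, and a list gives 1 value per contact for that time as a whole, so no comparison could be tested across pools.

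HiCAR, the assay used, marks open chromatin with a transposase and ligates the mark to DNA that lies close by in the nucleus, so that each sequenced molecule joins an open site to a spatial neighbour. Contacts of this kind can link enhancers with promoters or mark the edges of folded domains. Each called contact is listed with its count and an expected count, whose model was not given in the sources used here. After amputation of a fin, epidermis closes the wound, a blastema of dividing cells gathers under it and the rays then grow out again. The study's design asks which contacts appear in regenerating fins and are absent before injury. The returning contacts are those of one such order, called before injury, missed early and found later.

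In the lists as deposited, more contacts returned than showed the mirror pattern. Without a counterpart at 1 dpa were 7358 contacts of uninjured fins of at most 200 kb (30.2%), and 2990 of these had a counterpart at 4 dpa, or 40.6%. Of the 16990 contacts that did have a 1 dpa counterpart, 90.9% also had one at 4 dpa. The mirror pattern, called at 0 and 1 dpa and not at 4 dpa, held 1538 contacts, so the returning contacts were 1.94 times as many. This ratio moved with the lengths of the lists, which were 28421 contacts before injury, 18712 at 1 dpa and 26988 at 4 dpa. With each list shortened to the length of the shortest, 1391 contacts returned and 1204 showed the mirror pattern, a ratio of 1.16. With an FDR of at most 0.0001 asked of all 3 lists, 1830 contacts returned and 976 showed the mirror pattern, a ratio of 1.88. Asked of the 0 and 4 dpa lists alone, this limit gave 1287 returning and 1317 mirror contacts. That setting shortens the 4 dpa list and leaves the 1 dpa list whole, so it can only lower the ratio against the limit in all 3. Sequencing depth is unknown, because counts are listed for called contacts alone, and its part in the shorter 1 dpa list was not tested. The lists do hold expected counts for contacts called at both 0 and 1 dpa, but these are not compared here.

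The span of the returning contacts depended on the matching. Their median span was 40 kb, against 50 kb for all 0 dpa contacts of at most 200 kb, 70 kb for the 15452 contacts called at all 3 times and 20 kb for the 4368 called at 0 dpa alone. With a counterpart required in the identical bins, the returning contacts had a median span of 60 kb, above that of all. Under matching within 1 bin, contacts of 20 kb, the shortest span in any list, made up 32.3% of the returning contacts and 24.7% of all. Those of 110 to 200 kb made up 19.6% and 23.1%. As a share of the 0 dpa contacts of a given span, the returning contacts went from 16.1% at 20 kb to 11.9% at 30 to 50 kb, 10.7% at 60 to 100 kb and 10.4% at 110 to 200 kb. Above the shortest class the share was thus nearly level, while the share called at 0 dpa alone went from 37.1% at 20 kb to 7.33% at 200 kb, as the plot of fates by span shows. Among contacts without a 1 dpa counterpart, the part that came back at 4 dpa was higher at longer spans, going from 30.2% at 20 kb to 42.0% at 30 to 50 kb, 50.8% at 60 to 100 kb and 58.2% at 110 to 200 kb. The ratio of 4 to 0 dpa expected counts was higher at short spans than at long ones (1.29 and 1.17 at the ends). Its part in this order was not tested. Contacts with a 1 dpa counterpart also had a 4 dpa one more often at long spans. At 20 kb, 37.0% of the 0 dpa contacts were called at all times and 9.89% showed the mirror pattern. At 200 kb these shares were 77.3% and 3.67%. The order was thus not particular to contacts missed at 1 dpa.

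**Figure D1:**
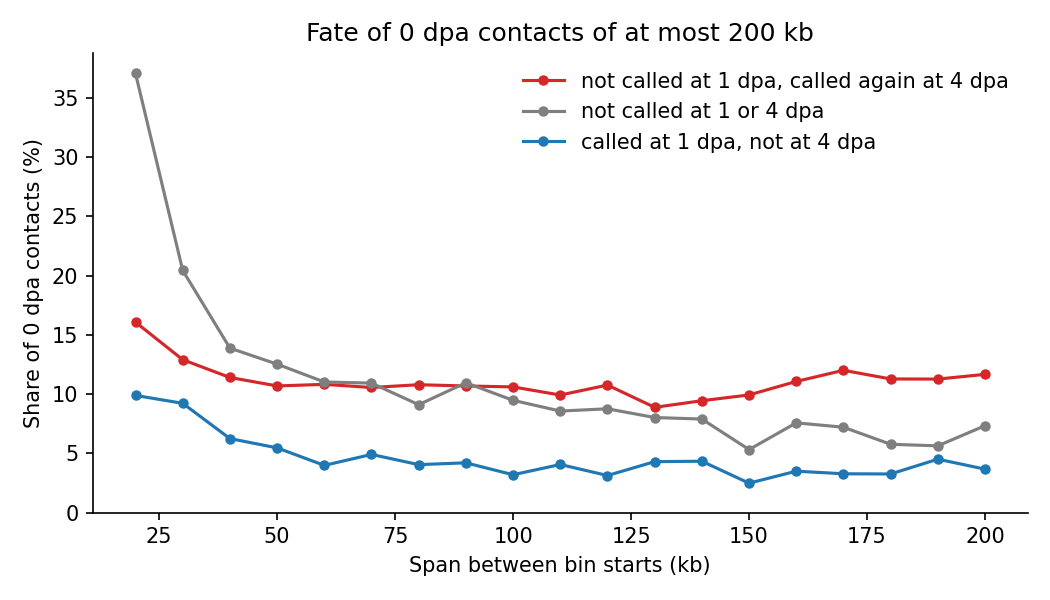
Share of the 0 dpa contacts of each span (percent, y axis) that were not called at 1 dpa and called again at 4 dpa (red), called at neither later time (grey) or called at 1 dpa and not at 4 dpa (blue), against span in kb (x axis). The red share is 16.1% at 20 kb and lies between 8.88% and 12.9% from 30 to 200 kb.

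Before injury the returning contacts were of modest strength. Their median count at 0 dpa was 29, with the middle of the distribution between 21 and 38 and a range of 12 to 84, and the lowest count in any list was 12. The strength of a contact is given here as its count over the expected count of the authors' background model. Its median was 3.23 at 0 dpa (range 2.00 to 16.5), against 3.93 for contacts called at all 3 times and 2.96 for those called at 0 dpa alone. Strength depends on span, and the order against contacts called at all times held in each span class: 2.79 against 3.03 at 20 kb, 2.94 against 3.26 at 30 to 50 kb, 3.58 against 4.07 at 60 to 100 kb and 4.49 against 4.92 at 110 to 200 kb. Against contacts called at 0 dpa alone the medians were close within each class (2.77, 2.84, 3.57 and 4.38), so the pooled difference of 3.23 against 2.96 went with the longer spans of the returning contacts. Contacts of the mirror pattern had medians of 2.75, 2.93, 3.54 and 4.41 in these classes, so modest strength was not particular to the returning contacts. An FDR of at most 0.0001 was reached by 53.8% of the returning contacts at 0 dpa, by 67.8% of those called at all times and by 55.3% of those called at 0 dpa alone. Among contacts of the mirror pattern 56.3% reached it.

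Most returning contacts had 0 dpa counts not far above the lowest that were called at 1 dpa at a like expected count. For each one, in a measure added after the lists were seen, the lowest count was taken among the 1 dpa contacts of at most 200 kb whose expected count lay within 10% of its own at 0 dpa. At an expected count near 6 this lowest count was 18, near 10 it was 24 and near 18 it was 36. The median returning contact had 1.26 times this lowest count at 0 dpa, the same as contacts called at 0 dpa alone (1.26), against 1.41 times for contacts called at all times. At least 1.5 times the lowest count was reached by 488 of 2989 (16.3%) returning contacts, by 9.25% of those called at 0 dpa alone and by 42.9% of those called at all times. A contact with no called neighbour needs a higher count, since such singletons had an FDR of at most 0.0001 in each list. The count at 0 dpa was below the lowest singleton count of 1 dpa for 35.2% of the returning contacts. This was near the 33.8% of contacts called at 0 dpa alone, against 23.7% of those called at all times. For 162 of 2985 the count was at least 1.5 times the lowest 1 dpa count at both 0 and 4 dpa, for 7 at least 2 times, and 96 of the 162 had neither anchor in any 1 dpa contact. Here and below, a contact not called in the same bins at 4 dpa took the values of its counterpart with the highest count. That counterpart can differ in span and can be shared by neighbours. A count not called at 1 dpa has no value in the lists, so the size of the change at 1 dpa is unknown for each contact. The expected count of such a contact at 1 dpa is missing too. No lowest count was taken from the 0 dpa list, so nearness to the 1 dpa limit cannot be told from nearness to calling limits in general.

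**Figure D2:**
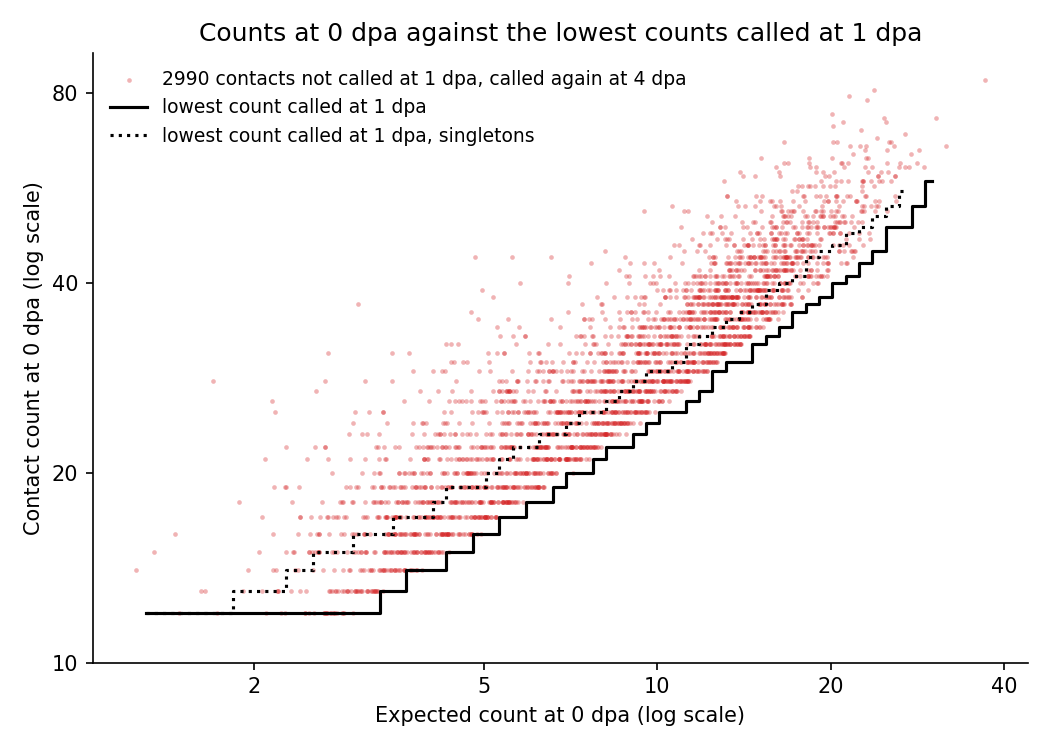
Count at 0 dpa (y axis, log scale) against expected count at 0 dpa (x axis, log scale) for each of the 2990 returning contacts (red points). The solid line is the lowest count called at 1 dpa at a like expected count and the dotted line the same for singletons; the 2989 points with such a count lie from 1 to 3.08 times the solid line.

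Strength at 4 dpa was close to that before injury. In the same bins at both times were 1811 of the returning contacts (60.6%), and the other 1179 had their 4 dpa counterpart 1 bin away at one or both anchors. Over the 1811, the median count went from 31 to 36 and the median expected count from 9.34 to 11.7, so that the median strength went from 3.31 to 3.02. Contact by contact, the median ratio of 4 to 0 dpa was 1.14 for counts, 1.24 for expected counts and 0.913 for strength, against 1.08, 1.21 and 0.886 for contacts called at all times. The expected ratio of the returning contacts was 1.29 at 20 kb and 1.17 at 110 to 200 kb. A rise in strength of 1.5-fold or more at 4 dpa was found for 12 returning contacts (0.663%) and a fall of that size for 85 (4.69%), beside 1.21% and 9.91% of all 12973 contacts in the same bins at both times. With raw counts scaled by their totals the split turned, to 57 higher (3.15%) and 19 lower (1.05%), beside 4.32% and 3.91% of all. With strength ratios centred on their median over all contacts it was 37 (2.04%) and 20 (1.1%), beside 3.28% and 3.85%. The direction of this small shift thus depended on the scaling. A contact had to be called at both times to enter, which limits the change that can be seen.

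**Figure D3:**
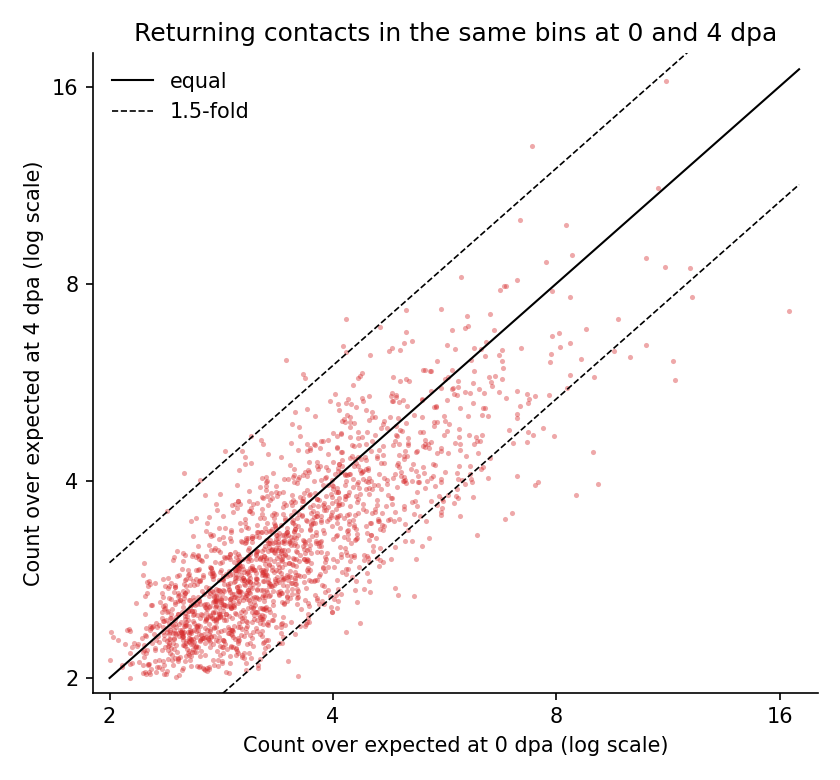
Count over expected at 4 dpa (y axis, log scale) against the same at 0 dpa (x axis, log scale) for the 1811 returning contacts in the same bins. The solid line marks equal strength and the dashed lines a change of 1.5-fold; 12 points lie at or above the upper line and 85 at or below the lower one.

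Most of the set lay outside clusters that kept a contact at 1 dpa, and the rule sets part of this. A contact within 1 bin of a 1 dpa contact has a counterpart, so a neighbour of one kept in the same bins cannot be a returning contact. The clusters were not examined under matching in identical bins. The deposited lists join neighbouring called contacts into clusters. At 0 dpa 643 returning contacts (21.5%) were singletons, against 6.75% of contacts called at all times and 37.7% of those called at 0 dpa alone. The share among contacts of the mirror pattern was much the same, 21.7%. Another 1704 lay in clusters of which no contact of at most 200 kb had a 1 dpa counterpart. The remaining 643 lay in clusters that kept at least 1 contact at 1 dpa, and 59 of these were the summit of their cluster. The returning contacts came from 1125 clusters of 2 or more, and 603 of these clusters consisted of returning contacts alone when contacts of at most 200 kb were counted, the largest with 7. The 2990 contacts are therefore not 2990 separate events. Joined where both anchors lay within 1 bin, they formed 1800 groups, 988 of a single contact and 79 of 4 or more. At 0 dpa the singletons had the highest median strength, 3.40 (95% interval of the median 3.32 to 3.47), against 3.16 (3.07 to 3.29) in clusters partly kept and 3.19 (3.13 to 3.24) in clusters not kept at 1 dpa. Singletons were listed only at an FDR of at most 0.0001 and other contacts up to 0.01, so the calling sets part of this order. The singletons were also the shortest, with a median span of 20 kb against 50 and 40 kb. Medians of 3.03, 3.01 and 3.03 were found for the 4 dpa counterparts of the same 3 kinds.

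The largest group lay on chromosome 22, between 25810001–25840000 and 25870001–25900000. It held 8 returning contacts with 19 to 36 counts each, or 208 in all, with strengths between 2.60 and 4.26 before injury. Strengths of the 4 dpa counterparts lay between 2.35 and 3.92, but only 2 of the 8 contacts were called in the same bins. Neighbouring contacts can share a counterpart that lies 1 bin away. A group of 7 on chromosome 12, between 3080001–3110000 and 3200001–3240000, was the strongest of the 5 largest, with 148 counts in all and strengths between 3.84 and 6.77 before injury. Its 4 dpa counterparts had strengths between 3.41 and 6.10, and 3 of its 7 contacts were in the same bins. Its contacts spanned 100 to 140 kb and the nearest 1 dpa contact lay 30 to 50 kb away, measured by the larger of the 2 anchor offsets. The other 3 groups of 7 spanned 20 to 60 kb. One on chromosome 16, from 26630001 to 26690000, had 323 counts and strengths of 2.07 to 3.80. Another, on chromosome 21 from 23180001 to 23250000, had 314 counts at 2.25 to 2.53. The last lay on chromosome 22 from 30280001 to 30350000, with 216 counts at 2.15 to 2.98. Called in the same bins at 4 dpa were 3, 1 and 2 contacts of these 3 groups. The highest multiple of the lowest 1 dpa count at a like expected count was 1.85 in the chromosome 16 group, 1.31 in the chromosome 21 group and 1.26 in the last, against 1.57 in the largest group and 2 in the chromosome 12 group.

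Many anchors of the returning contacts were in no 1 dpa contact. Of their 4699 anchor bins, 33.1% took part in any 1 dpa contact and 85.2% in any 4 dpa contact, against 58.6% and 68.1% of all anchor bins of 0 dpa contacts of at most 200 kb. With counterparts in identical bins, 52.5% of the anchors of the contacts then chosen took part in a 1 dpa contact. Not used at 1 dpa and used again at 4 dpa were 2498 anchor bins (53.2%). The rule sets part of this, since it asks for the missing and the later call. Contacts called at 0 dpa alone share the first of these conditions and give the closer comparison. Neither anchor was in the 1 dpa list for 46.5% of the returning contacts and 55.3% of those called at 0 dpa alone, and both anchors were there for 15.9% and 12.7%. This order was found at 20 kb (60.9% against 68.7% with neither anchor) and at 30 to 50 kb (44.6% against 51.1%). It was the reverse at 60 to 100 kb (37.8% against 32.9%) and at 110 to 200 kb (34.7% against 29.3%), so the pooled difference is no general property of the returning contacts. A 1 dpa contact lay exactly 20 kb away, just outside the matching distance, for 859 returning contacts (28.7%). The share was lower, 19.6%, for contacts called at 0 dpa alone, whose spans were shorter. The median strength of the 859 returning contacts, 3.30, was near that of the whole set. Just inside the distance, 5285 contacts called at all times with a 1 dpa contact 1 bin away had a median of 3.44.

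Other contacts of the same anchors had ratios of 1 to 0 dpa strength close to those of contacts elsewhere. These are 0 dpa contacts of at most 200 kb that were called at 1 dpa in the same bins, so none is a returning contact, but the 1 dpa calls that chose the returning contacts also decide which contacts enter here. Over 2204 such contacts with an anchor bin of a returning contact, the median ratio of 1 to 0 dpa strength was 0.943 (95% interval of the median 0.934 to 0.959). It was 0.936 (0.925 to 0.95) over 1730 contacts at anchors of contacts called at 0 dpa alone, and 0.945 (0.940 to 0.951) over 7117 contacts at neither kind of anchor. The 3 intervals overlap, and they treat contacts as independent, which neighbours are not. Of these contacts, 1815, 1280 and 5700 were also called in the same bins at 4 dpa. Their median ratios of 4 to 0 dpa strength were 0.881, 0.877 and 0.877, and those of 1 to 0 dpa were 0.936, 0.924 and 0.938. Kept contacts within a cluster that also held a returning contact had a ratio of 0.929 (0.918 to 0.941) at 1 dpa, against 0.941 (0.936 to 0.946) in other clusters. Only contacts strong enough to be called at 1 dpa enter these values, so a fall that took a contact below the limits is not seen in them.

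Counted over all anchor bins, in use at 1 dpa or not, gained partners at 1 dpa were about as frequent for the returning contacts as in general. A 1 dpa contact of at most 200 kb without a 0 dpa counterpart was found at 202 of the 4699 anchor bins (4.30%, Wilson interval 3.76% to 4.92%), beside 4.2% of all 25480 anchor bins of 0 dpa. Only 33.1% of the anchor bins of the returning contacts were in any 1 dpa contact, against 58.6% of all. Among anchor bins in use at 1 dpa, gained partners were thus more frequent for the returning contacts than for all. Anchors of contacts called at 0 dpa alone were similar, with 3.54% gained and 26.7% in use. At 4 dpa a gained contact was found at 470 of the 4699 (10.0%), beside 7.93% of all and 8.40% of the anchors of contacts called at all times. Use at 4 dpa was part of the rule, so the excess at 4 dpa is a description of anchors that had to be in use or next to one in use.

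Few anchors held many returning contacts. Of the 4699 anchor bins, 3661 held 1, 859 held 2 and 179 held 3 or more. The most, 7, were at 28440001–28450000 of chromosome 22, which had 10 called partners of any span before injury, 2 at 1 dpa and 7 at 4 dpa. Its contacts with bins at -200 and -20 kb were called at 1 dpa, with 18 and 44 counts, while those at -110, -90, -80, -50, 20, 30 and 140 kb, the returning ones, were not. At 4 dpa its contacts at -110, -80 and 140 kb were back in the same bins, with 23, 35 and 28 counts against 24, 24 and 25 at 0 dpa. On the same chromosome, the bin at 25810001–25820000, which also belongs to the largest group, had 9, 1 and 5 partners, and the one kept at 1 dpa lay at 120 kb with 27 counts before injury and 20 at 1 dpa. On chromosome 7 the bin at 56200001–56210000 had 13, 4 and 5 partners, that at 14400001–14410000 of chromosome 24 had 12, 4 and 6, and that at 8790001–8800000 of chromosome 12 had 15, 3 and 8.

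These anchors differed in where the returning contacts lay. At the chromosome 24 anchor the far partners at -170, -160, -150 and -140 kb were called at 1 dpa, and the 6 returning contacts were all nearer, at -120 to -20 kb. The strongest of the far ones, at -170 kb, had strengths of 8.88, 6.56 and 10.0 at 0, 1 and 4 dpa. At the chromosome 12 anchor the returning contacts lay at -170 to -100 kb, between contacts at -190 and -70 kb that were called at 1 dpa. Its partners at 20 and 30 kb were not called in the same bins at 1 or 4 dpa. Of the returning contacts of that anchor, those at -170 and -120 kb were back in the same bins at 4 dpa, with 21 and 25 counts against 20 and 23 at 0 dpa. Strengths of the returning contacts at the 5 anchors lay between 2.07 and 4.85 at 0 dpa. The anchors were chosen for their number of returning contacts, so their low count of partners at 1 dpa follows from the choice.

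**Figure D4:**
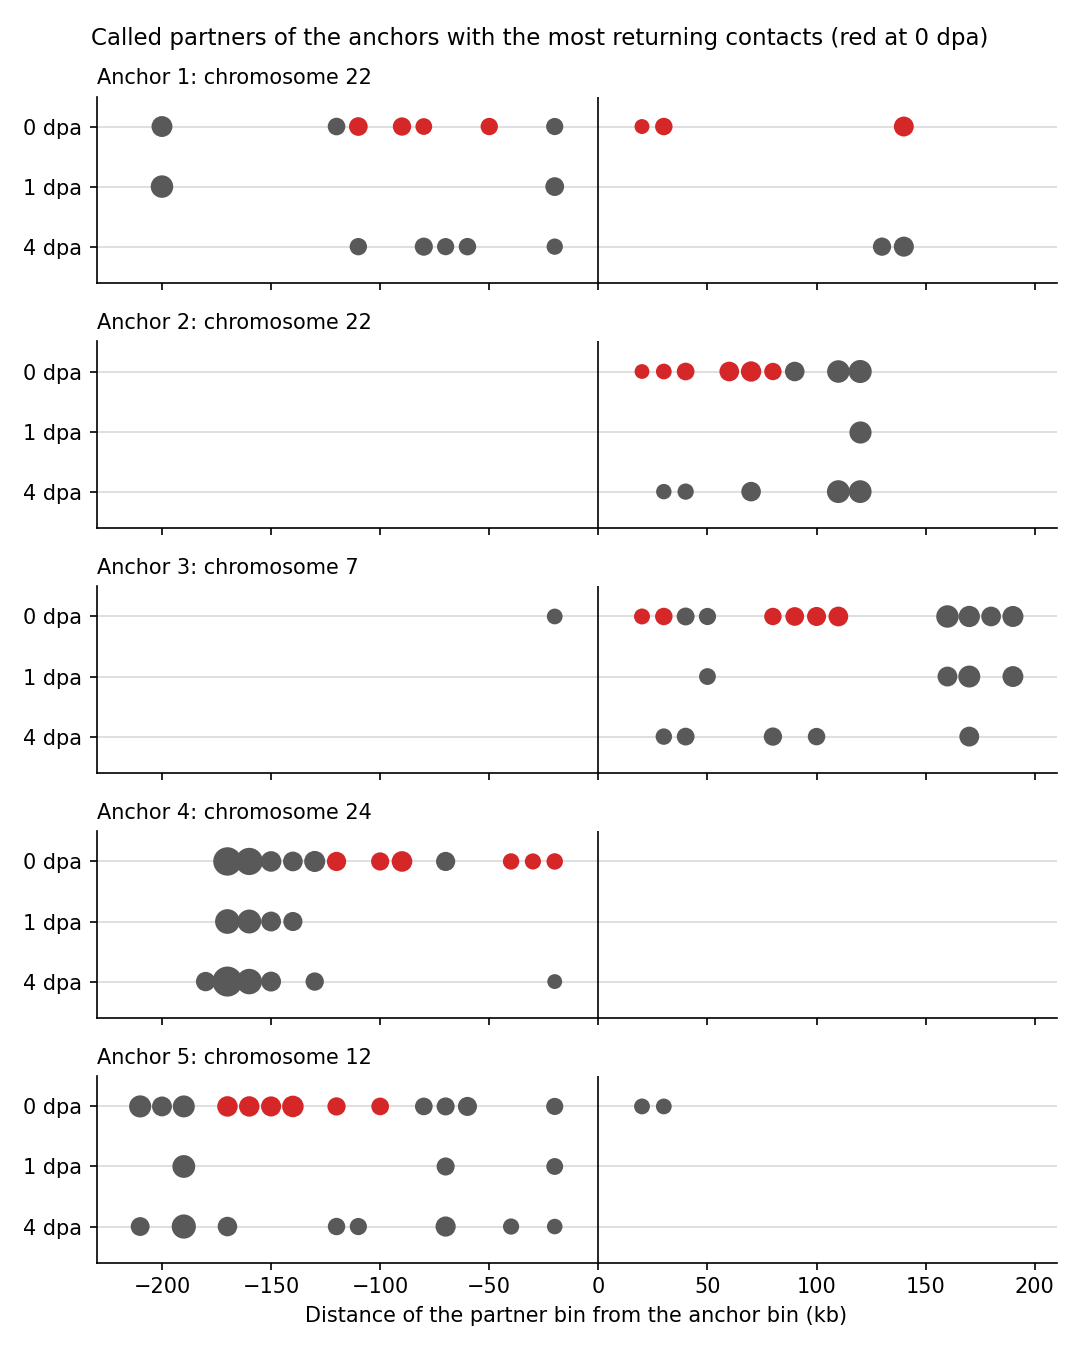
Called partner bins of the 5 anchor bins with the most returning contacts, by distance from the anchor in kb (x axis), at 0, 1 and 4 dpa (rows in each panel). The area of a point is proportional to count over expected and returning contacts are red at 0 dpa; the panels hold 10, 9, 13, 12 and 15 points at 0 dpa and 2, 1, 4, 4 and 3 at 1 dpa.

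Some of the strongest returning contacts were far from any 1 dpa call. Among the 1490 in the same bins with at least 20 counts at both times, the contact on chromosome 16 between 48420001–48430000 and 48600001–48610000 had the highest value of the lower of its 2 strengths. Its 28 counts before injury and 27 at 4 dpa were 10.6 (95% interval for counting error 7.01 to 15.3) and 8.76 (5.77 to 12.7) times the expected counts. The nearest 1 dpa contact was 380 kb away, and neither anchor was used at 1 dpa. A contact of chromosome 11 joined 42770001–42780000 to 42930001–42940000, with 37 counts before injury and 25 when it returned. Its strength was 12.2 (8.59 to 16.8) and then 7.62 (4.93 to 11.3), the count at 0 dpa was 3.08 times the lowest 1 dpa count at a like expected count, and the nearest 1 dpa contact was 220 kb away. This was the largest such multiple in the set.

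Of the other 6 named for their strength, 3 lay within 30 kb of a 1 dpa contact and 3 at 100 kb or more. The bins 18960001–18970000 and 19060001–19070000 of chromosome 1 shared 44 counts before injury and 61 at 4 dpa, at strengths of 6.73 (4.89 to 9.03) and 7.83 (5.99 to 10.1). A 1 dpa contact lay 20 kb away, so this contact would have a 1 dpa counterpart under matching within 2 bins. That of 5700001–5710000 with 5840001–5850000 on chromosome 12 had 28 and 29 counts and sat in a cluster of 20 contacts at both times. Of that cluster, 12 contacts had a 1 dpa counterpart. On chromosome 7, 5630001–5640000 and 5740001–5750000 shared 26 and 20 counts at strengths of 12.1 (7.91 to 17.7) and 8.44 (5.16 to 13.0), with a 1 dpa contact 30 kb away. Both contacts named on chromosome 2 had neither anchor in use at 1 dpa. The one between 25840001–25850000 and 26000001–26010000 had 25 and 29 counts and lay 110 kb from the nearest 1 dpa contact, and the one between 46840001–46850000 and 46930001–46940000 had 31 and 30 counts and lay 100 kb from it. On chromosome 20, 36230001–36240000 and 36390001–36400000 shared 20 and 29 counts at 200 kb from the nearest 1 dpa contact, and each of these anchors had 1 partner before injury, none at 1 dpa and 2 at 4 dpa.

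Named here are the 4 largest rises and 4 largest falls in strength from 0 to 4 dpa, 1 per cluster. The largest rise was on chromosome 7, where 33350001–33360000 and 33470001–33480000 shared 21 counts before injury and 42 afterwards, a ratio of strength of 1.76 (1.02 to 3.14). On chromosome 15, 11640001–11650000 with 11670001–11680000 went from 45 to 82 counts, a ratio of 1.63 (1.12 to 2.41). Of the 2 next largest rises, on chromosomes 5 and 11, the intervals reached below 1 (1.56, 0.964 to 2.56, and 1.51, 0.931 to 2.51). The largest fall was on chromosome 7, between 63230001–63240000 and 63250001–63260000, from 44 to 24 counts, a ratio of 0.434 (0.252 to 0.730). It was a singleton at both times, and neither anchor had another partner at 0 or 4 dpa or any at 1 dpa. Next came a contact on chromosome 6 between 52980001–52990000 and 53040001–53050000, from 36 to 24 counts, at 0.519 (0.296 to 0.895). The right anchor had 6 partners before injury, none at 1 dpa and 5 at 4 dpa. On chromosome 21, between 410001–420000 and 490001–500000, counts went from 36 to 23, at 0.526 (0.297 to 0.912). On chromosome 4, between 840001–850000 and 900001–910000, they went from 42 to 26, at 0.548 (0.323 to 0.915). All 8 were picked as the most changed of 1490, and the intervals take no account of the picking. An interval that leaves out 1 therefore does not show a change beyond counting error here.

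Contacts with the highest counts spanned 20 kb, where the expected count is highest. The highest, on chromosome 22, joined 18740001–18750000 to 18760001–18770000 with 84 counts before injury and 121 at 4 dpa, at strengths of 2.27 (1.81 to 2.81) and 2.78 (2.31 to 3.32). Both its anchors had as many or more partners at 1 dpa, 10, 11 and 10 for the left and 8, 11 and 10 for the right. So few 1 dpa contacts had an expected count like its 37.1 that no lowest count could be given. By contrast, the contact on chromosome 19 between 10890001–10900000 and 10910001–10920000, with 81 and 68 counts, lay 200 kb from the nearest 1 dpa contact, and it was the single contact of both its anchors at 0 and 4 dpa. Counts of 79 and 68 were found on chromosome 22 between 20980001–20990000 and 21000001–21010000, of 74 and 70 on chromosome 20 between 27160001–27170000 and 27180001–27190000, and of 73 and 95 on chromosome 1 between 24910001–24920000 and 24930001–24940000. On chromosome 5, 29950001–29960000 and 29970001–29980000 shared 78 counts, with its 4 dpa counterpart 1 bin away at 67.

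Returning contacts were found on each of the 25 chromosomes. They made up from 9.67% of the 0 dpa contacts of at most 200 kb on chromosome 4 to 15.1% on chromosome 13. The 95% Wilson intervals, which treat contacts as independent, were 7.93% to 11.8% and 12.9% to 17.6%. Of the contacts without a 1 dpa counterpart, the part that was back at 4 dpa ran from 30.2% on chromosome 14 to 56.0% on chromosome 22. On chromosome 22 the share missed at 1 dpa was among the lower ones, 25.2%, against 35% on chromosome 18, the highest. Chromosomes share the pools and the lists and are not replicates.

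**Figure D5:**
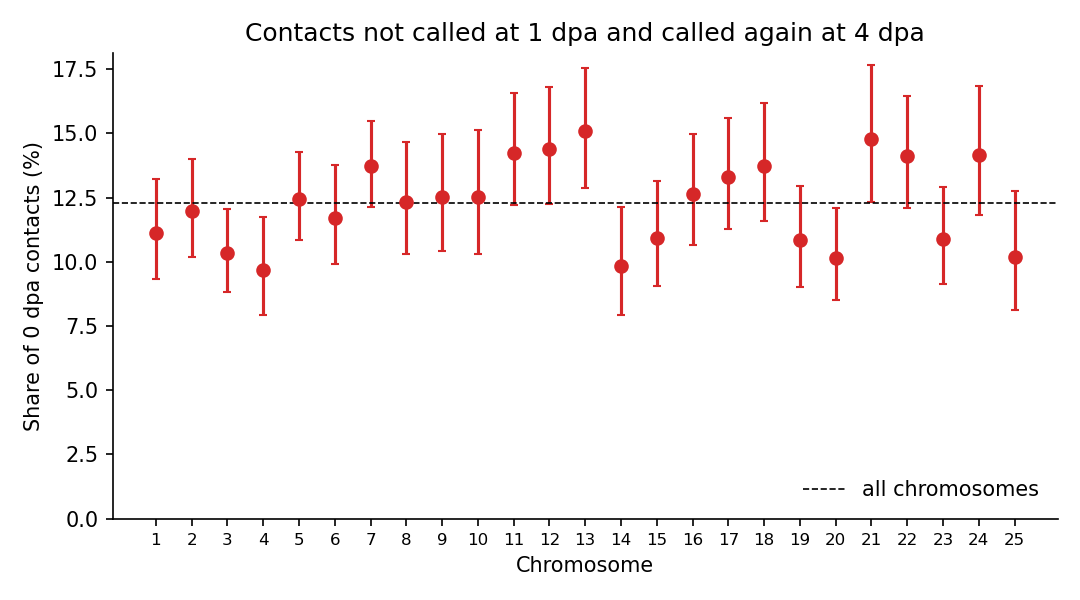
Share of 0 dpa contacts of at most 200 kb that were not called at 1 dpa and called again at 4 dpa (percent, y axis), by chromosome (x axis). Bars are 95% Wilson intervals, which treat contacts as independent, and the dashed line is the share over all chromosomes, 12.3%. Points run from 9.67% to 15.1%.

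The span limit of the set did not mark a break in the values. At 200 kb, just inside, were 35 returning contacts with a median count of 16 and a median strength of 4.96. At 210 kb, just outside, 40 contacts were missed at 1 dpa and called again at 4 dpa, with medians of 17 and 5.11.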

How the data were processed

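Caudal fins of zebrafish were assayed by HiCAR in 9 samples. The deposited lists, 1 per time point, hold pairs of 10 kb bins. Per the file headers, each pair has the authors' contact count, the count expected by their model (a signal), an FDR (a q-value) and the −log10 p of its cluster. BWA and danRer11 are named per the submitters' processing notes, while caller, model and merging of pools were not given in the sources used here. Listed pairs had counts of 12 or more, at least 2 times the expected count, and an FDR below 0.01.

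Counterparts, anchor use, count over expected and nearest 1 dpa contacts were computed with pandas 2.3.3 and SciPy 1.17.1, and the matching was checked on simulated data. There, contacts were thinned until they lay too far apart to share a counterpart, so matching among clustered contacts was not covered. Intervals at the 95% level are exact Poisson for strengths and exact conditional binomial for ratios, and these cover counting error only. They are Wilson for shares and order-statistic for medians. The latter 2 treat contacts or anchor bins as independent, which neighbours are not, and none covers the spread between pools. Named were the 8 strongest contacts (by the lower of the 0 and 4 dpa strengths), the 4 largest rises and falls, the 6 highest counts, 1 per cluster, and the 5 anchors and 5 groups with the most members. The lowest-count measure, kept contacts at the same anchors, gained partners and the window shares were added after the lists were seen. The members and lists were chosen with earlier results of these data known. The annotation given is of another build than danRer11, so no gene was assigned and no sequence is shown, though both had been planned. Positions are 1-based in danRer11.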

Additional observations from a re-analysis of the deposited data

How the results depend on the processing

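No paired analysis was possible because each list holds 1 value per time point, and no replicate could be left out. The number of returning contacts, 2990, stayed within 1.5 times under 7 of 12 alternatives (2375 to 4178, the latter with identical bins). It was 1830 when each list was limited to an FDR of at most 0.0001, 1287 with that limit at 0 and 4 dpa alone, 1391 with lists of equal length, 1386 with cluster summits alone and 1238 for spans over 50 kb. The settings for summits and for span leave the matching as it was and only cut or extend the same set. Their numbers are therefore no check on it, and the span limits set much of the median spans given below. The ratio of returning to mirror contacts was 1.94. With the FDR limit in all 3 lists it was 1.88, and with the count limit in all 3 it was 1.98. For spans over 50 kb it was 2.71, and with equal lengths 1.16. With the FDR limit at 0 and 4 dpa alone the mirror pattern held 1317 contacts, a ratio of 0.977. The median span of 40 kb became 60 kb with identical bins, 60 kb without singletons and 50 kb without a span limit, 100 kb over 50 kb, and 30 kb within 2 bins, with the FDR or count limit at 0 and 4 dpa alone, with equal lengths, with summits and up to 100 kb. Median strength at 0 dpa, 3.23, was 3.49 with identical bins, 3.18 within 2 bins, 3.59 and 3.53 under the FDR limits, 3.11 and 3.02 under the count limits, 3.52 with equal lengths, 3.39 without singletons, 3.46 with summits, 3.03 up to 100 kb, 4.04 over 50 kb and 3.42 with no span limit. The share of anchors used at 1 dpa, 33.1%, was 52.5% with identical bins, 24.6% within 2 bins, 29.0% and 30.7% under the FDR limits, 30.1% at a count of at least 20 in all lists, 31.5% with equal lengths, 30.7% without singletons, 29.2% with summits and 40.3% over 50 kb. The 12 higher and 85 lower contacts at 4 dpa became 57 and 19 with raw counts, 37 and 20 with centred ratios, 0 and 5 at 2-fold and 2 and 37 at the stricter FDR in both lists. The causes of these shifts were not tested.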

Other observations

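The share of returning contacts varied between windows along the chromosomes. In windows of 1 Mb with at least 20 contacts of uninjured fins, taken by the left anchor, the median share of returning contacts was 10.3% over 468 windows. No returning contact was found in 53 windows, and at least 25% of the contacts returned in 41. The highest share was at 48000001–49000000 of chromosome 7, where 13 of 24 contacts returned, and the window held 24, 7 and 19 called contacts of at most 200 kb at 0, 1 and 4 dpa. At 48000001–49000000 of chromosome 6, 10 of 20 returned, with 20, 7 and 17 contacts called. At 3000001–4000000 of chromosome 12, which holds the strongest of the large groups, 14 of 29 returned, with 29, 6 and 24 called. At 25000001–26000000 of chromosome 11, 10 of 21 returned, and these were all the contacts there without a 1 dpa counterpart. These windows were chosen after their values were seen, and contacts in a window share anchors and clusters. Whether the shares varied more than so few contacts per window would give was not tested.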
